A study of Mus musculus with 24 samples.

Results

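Red blood cell genes were followed in the left ventricle of the mouse heart through 6 genes: Slc4a1, Alas2, Hba-a1, Hbb-b1, Hbb-b2 and Bpgm. They were read through every array probe that current annotation assigns to them. Of the 6 genes 5 had a probe, among 19057 gene symbols on the array, and together they had 6 probes of 45281. Slc4a1, Alas2, Hba-a1 and Hbb-b2 had 1 probe each and Bpgm had 2. Hbb-b1 had 0 probes under this annotation, which assigns 10 other beta-globin probes to Hbb-bs and Hbb-bt. Within each mouse strain, testing was limited to probes with a detection p below 0.05 on 3 or more of its 12 arrays. In C57Bl/6J 4 of the 6 probes were kept and in Balb/C 5, so Hbb-b2 could be tested in Balb/C alone and 1 of the 2 Bpgm probes, ILMN_2707588, was not detected on any array of either strain.

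The study infused male mice for 2 weeks with angiotensin II (AngII), a peptide hormone that raises blood pressure and enlarges the heart, or with NaCl as sham treatment, and measured total left-ventricle RNA on 24 Illumina arrays. In C57Bl/6J the groups were wild type with sham treatment, wild type with AngII, Bmx-deficient with sham treatment and Bmx-deficient with AngII, the deficient mice being labelled KO. The same 4 groups were made in Balb/C, where the deficient mice are labelled TK, and each of the 8 groups had 3 arrays. Bmx encodes a non-receptor tyrosine kinase of endothelial and myeloid cells. What distinguishes the KO and TK alleles, the ages of the mice and whether blood was washed out of the hearts are not given in the sources used here, and the labels do not say that arrays of a group came from separate mice. The p-values therefore cover only the variation among these arrays, which may be technical.

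Mature red cells carry leftover messenger RNA from their maturation in bone marrow and spleen, and young red cells, the reticulocytes, carry most of it. Hba-a1 encodes the alpha chain of haemoglobin, and Hbb-b1, Hbb-b2, Hbb-bs and Hbb-bt encode adult beta chains, of which inbred mouse strains carry different pairs. Alas2 encodes the erythroid form of the first enzyme of heme synthesis, Slc4a1 the anion exchanger band 3 of the red cell membrane, and Bpgm the enzyme that makes the 2,3-bisphosphoglycerate that lowers the oxygen affinity of haemoglobin. Heart muscle itself does not use haemoglobin as its main oxygen store but myoglobin. In tissue RNA, fewer cells of a type and less RNA per cell cannot be told apart.

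Promoters are shown because Alas2, Hba-a1 and the beta-globin genes are textbook targets of the same erythroid transcription factors, while Bpgm is also used outside red cells. The 250 bases before the gene start were taken from RefSeq for build GRCm38.p6, where 5 of the 8 genes searched (the 6 members, Hbb-bs and Hbb-bt) matched. Slc4a1, Hbb-b1 and Hbb-b2 are named only. Capitals mark 3 motifs on either strand, so that a site may also appear as the reverse complement. They are the letters GATAA of GATA factor sites, then the letters CACCC of sites read by Krüppel-like factors, and finally the letters CCAAT of a common promoter box. No marked sites overlap.
Alas2 (chrX:150547167-150547416, plus strand): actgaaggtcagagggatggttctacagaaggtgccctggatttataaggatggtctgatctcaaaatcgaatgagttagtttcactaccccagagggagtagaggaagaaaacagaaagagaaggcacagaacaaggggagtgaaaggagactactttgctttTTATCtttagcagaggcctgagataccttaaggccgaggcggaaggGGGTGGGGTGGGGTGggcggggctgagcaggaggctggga
Hba-a1 (chr11:32283422-32283671, plus strand): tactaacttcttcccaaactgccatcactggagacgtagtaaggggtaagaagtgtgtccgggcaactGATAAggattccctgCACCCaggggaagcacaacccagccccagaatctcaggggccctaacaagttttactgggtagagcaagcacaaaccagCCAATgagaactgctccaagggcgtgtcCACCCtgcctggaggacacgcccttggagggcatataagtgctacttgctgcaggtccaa
Hbb-bt (chr7:103813924-103814173, minus strand): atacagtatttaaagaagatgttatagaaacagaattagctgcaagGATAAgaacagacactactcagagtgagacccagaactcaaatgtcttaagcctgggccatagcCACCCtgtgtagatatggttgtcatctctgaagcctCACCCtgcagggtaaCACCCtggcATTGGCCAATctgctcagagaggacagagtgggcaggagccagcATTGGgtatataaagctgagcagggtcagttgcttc
Bpgm (chr6:34476106-34476355, plus strand): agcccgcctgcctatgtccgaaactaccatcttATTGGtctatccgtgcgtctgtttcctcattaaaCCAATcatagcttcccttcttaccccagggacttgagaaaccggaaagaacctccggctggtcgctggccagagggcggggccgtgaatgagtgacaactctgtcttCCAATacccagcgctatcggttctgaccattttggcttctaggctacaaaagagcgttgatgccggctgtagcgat
The GATAA letters occurred once in each of the windows of Alas2, Hba-a1, Hbb-bt and Hbb-bs and were not in that of Bpgm, and 22.6% of 32851 mouse promoter windows of this length held them. CACCC had 3 sites in Alas2, 2 in Hba-a1, 3 in Hbb-bt, 1 in Hbb-bs and 0 in Bpgm, against 52.0% of all windows with at least 1. CCAAT had 3 sites in Bpgm, 3 in Hbb-bt, 1 in Hba-a1, 1 in Hbb-bs and 0 in Alas2, against 33.8% of all windows. These matches describe the letters alone.

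Array quality was even. Median raw signals lay between 124.2 and 139.8 in C57Bl/6J and between 95.3 and 110.2 in Balb/C, replicates of a group correlated between 0.984 and 0.991, and 0 pairs of arrays held identical values. Bmx had 4 probes, of which ILMN_2857993 alone was kept. It had log2 signals of 6.43 ± 0.10 in wild-type and 6.11 ± 0.11 in deficient sham hearts of C57Bl/6J, and 5.69 ± 0.10 and 5.73 ± 0.10 in Balb/C (mean ± SD, n = 3), with no genotype difference past the threshold. Where this probe lies against the altered part of the gene is not given in the sources used here, so it does not check the genotype labels. All 11 measured ventricular muscle markers, Myh6 and Myl2 among them, were kept in both strains, while of 6 atrial markers Sln, Myl7 and Bmp10 were not kept. The other atrial markers, Nppa, Dkk3 and Myl4, were kept in both strains, and under AngII all 3 were called higher in wild-type Balb/C hearts and 2 in each other group. Among all genes, each read by its brightest kept probe, 17.4% were called higher in wild-type and 7.44% in deficient Balb/C hearts. In C57Bl/6J 3.24% and 1.89% were. The source of the rise of these markers was not tested. The summed level of the 3 markers in Balb/C was 22438 to 26196 on wild-type and 10113 to 12393 on deficient AngII arrays, against 2358 to 4673 and 3165 to 4257 on sham arrays. In C57Bl/6J it was 22980 to 35162 and 28991 to 38741 against 15072 to 16145 and 12654 to 19006, and the part of these markers in the members' values was not tested.

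In C57Bl/6J hearts Slc4a1 was the member with the widest response to AngII. On the log2 scale of normalized signal, wild-type sham hearts had 4.75, 5.93 and 5.04 and wild-type AngII hearts 7.47, 8.41 and 9.22. Every AngII array was above every sham array, and the lowest sham array was the only 1 of the strain's 12 on which the probe was not detected. Slc4a1 rose by 3.12 ± 0.39 (log2 difference ± SE, 3 arrays against 3, an 8.72-fold higher signal), with an adjusted p of 0.000764. Here and throughout, differences come from a limma fit of every kept probe of a strain, adjusted by Benjamini and Hochberg over all of them, and are called below 0.05. In raw signal the sham arrays lay between 125.9 and 167.6 and the AngII arrays between 267.2 and 734.8, which is dim beside the globin probes. The size of the rise depended on the background step: without background correction it was 1.52 in wild-type hearts and the call held.

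In deficient C57Bl/6J hearts Slc4a1 read 6.14, 6.11 and 6.56 after sham treatment and 8.39, 8.43 and 7.71 after AngII. Groups again did not overlap, and Slc4a1 rose by 1.91 ± 0.39 (adjusted p = 0.0241). Leaving out any 1 of 5 of the 6 arrays of these groups (AngII replicates 1 and 2, and each sham array) put the adjusted p between 0.0577 and 0.0652, with differences between 1.78 and 2.05. Without background correction the rise was 1.04, still called. Sham levels were 5.24 ± 0.61 in wild-type and 6.27 ± 0.25 in deficient hearts (mean ± SD, n = 3), a difference of 1.03 ± 0.39 with an adjusted p of 0.677. The responses of the genotypes, deficient minus wild type, differed by -1.22 ± 0.54 for Slc4a1 (adjusted p = 0.598), and 0 of 4 members were called in that contrast, against 0.0394% of all probes.

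Alas2 went the same way at a higher level. In wild-type C57Bl/6J hearts it read 8.94, 9.65 and 8.31 after sham treatment and 9.99, 11 and 11.07 after AngII, without overlap. The rise was 1.72 ± 0.42 (3.3-fold, adjusted p = 0.0295). It passed the threshold by a small margin: without AngII replicate 2 or 3, or without sham replicate 1 or 3, the difference was between 1.40 and 1.71 and the adjusted p between 0.0795 and 0.104. Deficient hearts had 9.26, 9.35 and 10.25 after sham treatment and 11.52, 10.10 and 10.58 after AngII, and here the groups overlapped. Their difference of 1.11 ± 0.42 had an adjusted p of 0.152, and the difference between the genotypes' responses, -0.61 ± 0.59, one of 0.826.

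Hba-a1, the alpha-globin gene, was near the top of every array. Its log2 signals in C57Bl/6J were 14.87, 15.28 and 14.53 in wild-type sham hearts and 15.30, 15.41 and 15.54 in wild-type AngII hearts. The highest sham array lay just under the lowest AngII array. The difference of 0.53 ± 0.17 had an adjusted p of 0.0812, and 0.24 ± 0.17 in deficient hearts had 0.448. By rank the probe stood 46th, 19th and 77th of all probes on the wild-type sham arrays and 18th, 12th and 2nd on the AngII arrays, so that few probes stood above it. Its raw AngII signals of 40008.6 to 46904.8 lay close to the highest signal of any probe, 46044.9 to 50426.9 over the arrays of the strain. How far this limits its differences was not tested, so they do not show that Hba-a1 changed little. Hba-a1 has a near-identical partner, Hba-a2, that this probe may also read.

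Hbb-b2 was not detected on any of the 12 C57Bl/6J arrays, where its raw signal stayed between 108.9 and 142.8 in all 4 groups. Bpgm, read by ILMN_2553448, was detected on 6 of the 12 C57Bl/6J arrays and gave differences of -0.18 ± 0.17 in wild-type and -0.16 ± 0.17 in deficient hearts (adjusted p = 0.582 and 0.622). Of the 4 members tested in C57Bl/6J, 2 were called higher under AngII in wild-type hearts, where 3.21% of all 20319 probes were called higher, and 1 in deficient hearts, where 2.03% were. The groups of 3 members did not overlap in wild-type hearts and those of 1 in deficient hearts, against 27.4% and 25.7% of all probes. Averaged over both genotypes, Slc4a1 rose by 2.52 ± 0.27 (adjusted p = 0.000215), Alas2 by 1.42 ± 0.30 (0.00756) and Hba-a1 by 0.38 ± 0.12 (0.0453), or 3 of 4 members against 7.89% of all probes. The Hba-a1 call was lost under 3 of 10 other settings and without any 1 of 10 of the 12 arrays (adjusted p up to 0.0917), which left 2 members. It held without sham replicate 2 of wild-type or sham replicate 3 of deficient hearts. The median member difference was 1.12 in wild-type and 0.68 in deficient hearts, where the median of all probes was -0.01 in each.

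**Figure D1:**
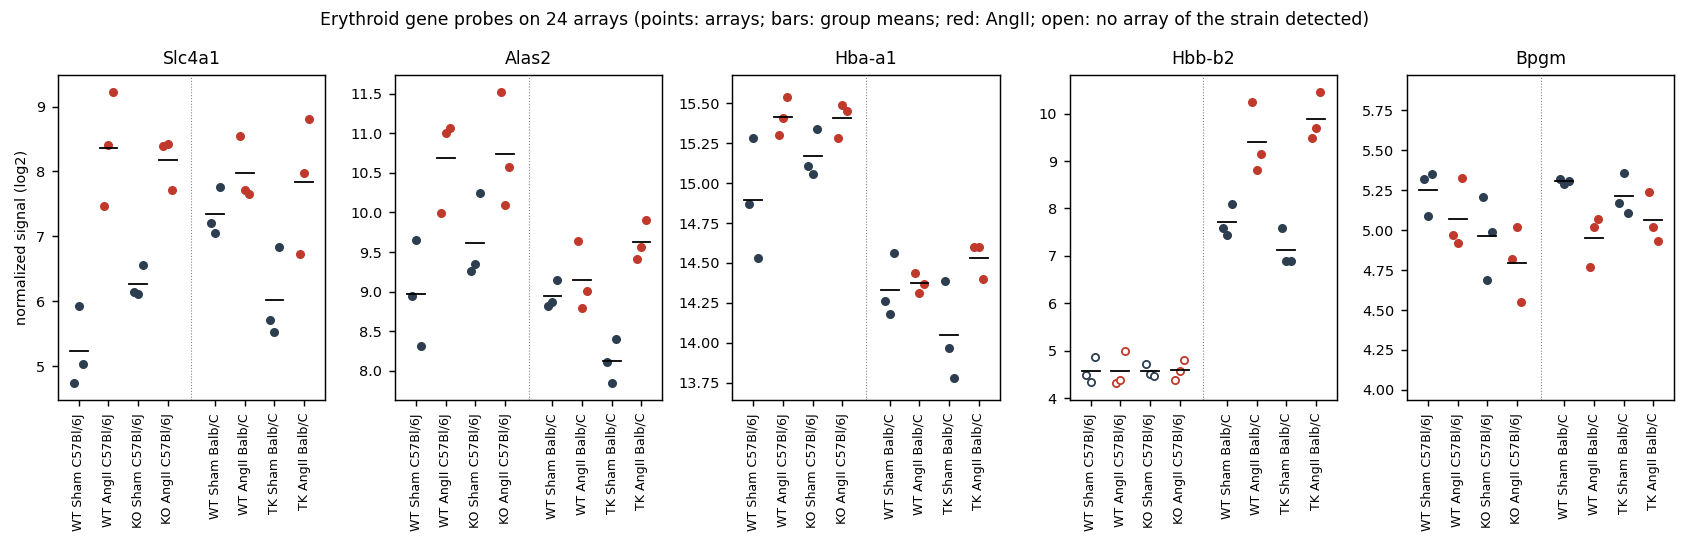
Normalized log2 signal of 1 probe per member gene (vertical axes, which differ in range) on each of the 24 arrays, by group (horizontal axis). Points are arrays, bars are means of 3 arrays and red is AngII. Slc4a1 of C57Bl/6J runs from 4.75 to 9.22, Hbb-b2 lies at background in C57Bl/6J and between 6.89 and 10.45 in Balb/C, and the Bpgm range is the narrowest in log2 terms.

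In Balb/C hearts the beta-globin probe Hbb-b2 was the member that rose in both genotypes. Wild-type sham hearts read 7.59, 7.44 and 8.09 and wild-type AngII hearts 10.24, 8.81 and 9.15. The groups did not overlap, and the rise was 1.69 ± 0.32 (3.23-fold, adjusted p = 6e-04). Deficient hearts read 7.58, 6.90 and 6.89 after sham treatment and 9.48, 9.70 and 10.45 after AngII. These groups were further apart, with a rise of 2.75 ± 0.32 (6.74-fold, adjusted p = 3.73e-05). Both rises kept their call under each alternative processing tried and with each array left out in turn.

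Alas2 in Balb/C separated the AngII and sham arrays of deficient hearts and not those of wild-type hearts. Deficient sham hearts had 8.11, 7.85 and 8.40 and deficient AngII hearts 9.41, 9.57 and 9.90. Alas2 rose there by 1.51 ± 0.21 (2.84-fold, adjusted p = 0.000155). In wild-type hearts the values were 8.82, 8.87 and 9.15 after sham treatment and 9.64, 8.79 and 9.01 after AngII. They overlapped, and the difference of 0.20 ± 0.21 had an adjusted p of 0.49. The test of the difference itself, the response of deficient minus that of wild-type hearts, gave 1.31 ± 0.29 with an adjusted p of 0.0352, against 0.308% of all probes called higher in that contrast. This call was lost under 5 of 10 other ways of processing and without most single arrays, with adjusted p-values up to 0.202, reached with median scaling, where the difference was 0.81. Wild-type and deficient sham hearts differed by -0.83 ± 0.21 (adjusted p = 0.352), deficient being lower on every array, and under AngII by 0.48 ± 0.21 (adjusted p = 0.173).

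Slc4a1 of Balb/C followed Alas2 with a wider scatter. Its values were 7.20, 7.06 and 7.76 in wild-type sham hearts and 8.54, 7.72 and 7.65 in wild-type AngII hearts. Sham and AngII arrays overlapped, and the difference of 0.63 ± 0.41 had an adjusted p of 0.255. Deficient sham hearts read 5.71, 5.53 and 6.83 and deficient AngII hearts 6.73, 7.97 and 8.81. The highest sham array lay above the lowest AngII array, yet Slc4a1 passed the test there with a rise of 1.81 ± 0.41 (3.52-fold, adjusted p = 0.00745). That call ended without background correction (1.02, adjusted p = 0.0519) and without the filter on dim probes (adjusted p = 0.0749). The responses of the genotypes differed by 1.18 ± 0.58, with an adjusted p of 0.402.

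Hba-a1 of Balb/C gave 0.04 ± 0.16 in wild-type and 0.49 ± 0.16 in deficient hearts (adjusted p = 0.875 and 0.0552), the latter called under 6 of 11 other settings. Its deficient sham arrays read 14.39, 13.97 and 13.78 and the deficient AngII arrays 14.60, 14.60 and 14.40, just without overlap. Bpgm, detected on all 12 Balb/C arrays at raw signals of 106.4 to 125.3, had differences of -0.35 ± 0.14 and -0.15 ± 0.14 (adjusted p = 0.0597 and 0.523). The wild-type difference was called without the filter on dim probes (adjusted p = 0.0414), with a stricter filter (0.05) and with 1 probe per gene (0.0497). It was the only member whose AngII arrays in wild-type Balb/C all lay below the sham arrays, at 4.77, 5.02 and 5.07 against 5.32, 5.29 and 5.31. In Balb/C 1 of 5 members was called higher in wild-type hearts, against 16.5% of all 19783 probes, and 3 of 5 in deficient hearts, against 7.79%. The groups of 2 and 3 members did not overlap, against 44.3% and 33.8% of all probes. The count for wild-type hearts is near its background. Averaged over both genotypes, Hbb-b2 rose by 2.22 (adjusted p = 1.12e-06), Slc4a1 by 1.22 (0.00301) and Alas2 by 0.85 (0.000215), or 3 of 5 members against 17.9% of all probes.

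Scaling bears on the wild-type Balb/C values. With scaling of each array to the same median in place of quantile normalization, the median of all probes moved from -0.06 to 0.28 in that comparison, and Slc4a1 (1.16, adjusted p = 0.0469) and Alas2 (0.72, adjusted p = 0.0482) were then called there. In raw signal, with no normalization, Hbb-b2 differed by 1.91 in wild-type and 2.26 in deficient hearts of Balb/C and Hba-a1 by 0.39 and 0.62.

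**Figure D2:**
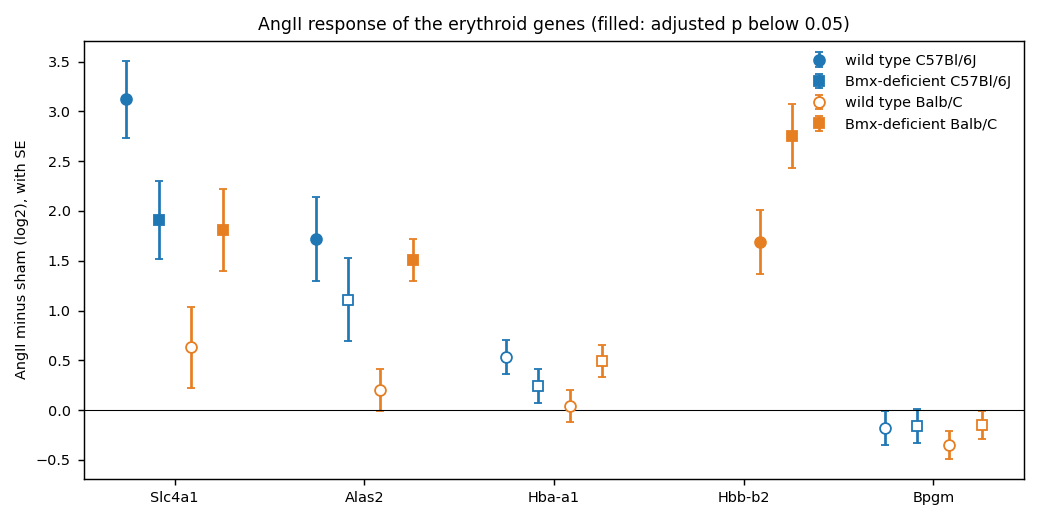
AngII minus sham difference in log2 normalized signal (vertical axis, bars are the SE of the fit, 3 arrays per group) for each member gene (horizontal axis) in the 4 combinations of genotype and strain. Filled symbols have an adjusted p below 0.05: Slc4a1 and Alas2 reach 3.12 and 1.72 in wild-type C57Bl/6J hearts and 0.63 and 0.20 in wild-type Balb/C hearts, while Bpgm stays between -0.35 and -0.15.

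The strains were set against each other by their AngII responses, since their arrays were normalized separately and levels cannot be compared. Each strain's arrays also form a separate file with its own signal scale. The highest raw signals were 46044.9 to 50426.9 in C57Bl/6J and 23226.5 to 31652.1 in Balb/C. A difference of responses therefore cannot tell the strain from the set of arrays. In wild-type hearts the response of Slc4a1 was smaller in Balb/C than in C57Bl/6J by 2.49 log2 units, a Balb/C minus C57Bl/6J difference of -2.49 ± 0.63 (adjusted p = 0.0114). For Alas2 it was -1.52 ± 0.49 (adjusted p = 0.0436), and for Hba-a1 -0.48 ± 0.24 (adjusted p = 0.179). These are 2 of 4 members called lower, against 5.92% of 17967 probes kept in both strains. In deficient hearts the differences were -0.09 ± 0.63 for Slc4a1, 0.39 ± 0.49 for Alas2 and 0.25 ± 0.24 for Hba-a1, 0 of 4 called, against 1.24% of all probes in either direction. The Slc4a1 difference in wild-type hearts shrank to -1.09 without background correction (adjusted p = 0.0808) and to -1.16 on the deposited series values (adjusted p = 0.0742), and that of Alas2 ended under 4 of 10 other settings, with the smallest difference, -0.97 (adjusted p = 0.177), under median scaling. The Alas2 call was also lost without wild-type AngII replicate 2 or 3 of either strain. It was lost as well without wild-type sham replicate 1 or 3 of C57Bl/6J, or any 1 wild-type sham array or deficient AngII replicate 2 of Balb/C. Its adjusted p reached 0.129 without wild-type sham replicate 3 of C57Bl/6J, where the difference was -1.20.

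Genotype itself called no member by limma in either treatment of either strain, with 0 of 4 in C57Bl/6J and 0 of 5 in Balb/C. Among all probes, 0.00492% were called in sham and 0.108% in AngII hearts of C57Bl/6J, and 0% and 8.29% in Balb/C. Before adjustment, 1 member in sham hearts of C57Bl/6J (Slc4a1, higher in deficient hearts) and 2 in those of Balb/C (Slc4a1 at -1.32 ± 0.41 and Alas2, both lower) fell below 0.05, as did 6.68% and 10.3% of all probes. The sham groups of these members did not overlap, where 10.7% of C57Bl/6J and 15.9% of Balb/C probes had such groups. Without wild-type AngII replicate 1 of Balb/C, the array with the highest Slc4a1, Alas2 and Hbb-b2 of its group, 2 members were called in AngII hearts: Alas2 at 0.73 (adjusted p = 0.0201) and Hbb-b2 at 0.89 (adjusted p = 0.0405). Leaving out that array also raised the calls over all probes, from 1640 to 2334 of 19486.

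The other adult beta-globin probes gave a second reading of haemoglobin messenger RNA. Hbb-bs had 6 probes and Hbb-bt 4, all kept in both strains, and since the genes are near-identical and strains carry different pairs, a probe can read more than 1 of them. In C57Bl/6J 5 of the 10 were called higher in wild-type and 1 in deficient hearts, and in Balb/C 8 of 10 in each genotype, against the 3.21%, 2.03%, 16.5% and 7.79% of all probes given above. All 10 differences were above 0 in each of these comparisons, with medians of 0.69 and 0.43 in C57Bl/6J and 0.99 and 1.31 in Balb/C. The C57Bl/6J count moved with single arrays, from 1 to 9 in wild-type and from 0 to 2 in deficient hearts: in wild-type hearts it was 1 without AngII replicate 2 or 3 or sham replicate 1 or 3, and 9 without sham replicate 2. In deficient hearts it was 0 without AngII replicate 1 or 3 or any 1 sham array, and 2 without AngII replicate 2 or wild-type sham replicate 2. In wild-type Balb/C hearts it was 5 without sham replicate 1 and 4 without the filter on dim probes. Calls over all probes moved with single arrays too. In wild-type C57Bl/6J hearts they went from 1301 to between 564 (without AngII replicate 2) and 1409. In deficient C57Bl/6J hearts they went from 690 to between 98 (without sham replicate 3) and 730. By setting, the beta-globin count in deficient C57Bl/6J hearts was 4 without background correction, with an offset of 50, with a trended prior and on the deposited values. It was 2 there with median scaling and 0 without the filter on dim probes or with the replicate number as a block. The count in wild-type C57Bl/6J hearts was 9 with a trended prior and 3 with only the groups compared. With only the brightest kept probe per gene, 0 of 2 were called in either genotype of either strain.

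Dimmer globin probes mostly had the larger responses. In C57Bl/6J the Hbb-bs probe ILMN_2544056, with a mean raw sham signal of 2198.7, differed by 1.90 and 1.84 in wild-type and deficient hearts, and the Hbb-bt probe ILMN_1235372, at 503.18, by 1.81 and 1.30. At the bright end, the Hbb-bs probe ILMN_2545963 had a mean raw sham signal of 37796, on arrays whose highest signal was between 46044.9 and 50426.9, and differed by 0.39 and 0.26. A like ordering was seen in Balb/C, where ILMN_1255462 (347.3 in sham hearts) differed by 2.56 and 3.32, ILMN_2544056 (932.92) by 2.18 and 3.01, and the brightest, ILMN_1244316 (18570), by 0.09 and 0.22. The dimmest probe there, ILMN_1235372 (113.15), was an exception at 1.11 and 1.83. Across the 10 probes the Spearman correlation of sham brightness with response was -0.90 in C57Bl/6J and -0.95 in Balb/C, a description over probes that share arrays and targets. Raw, unnormalized differences of ILMN_2545963 in C57Bl/6J were 0.51 and 0.26. Those of ILMN_1244316 in Balb/C were 0.43 and 0.35, larger than its normalized 0.09 and 0.22.

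ILMN_1255462 shows how far the strains' readings differ for 1 probe. It had raw sham signals of 19064.3 to 35574.1 in C57Bl/6J and of 188.4 to 548.4 in Balb/C. Hbb-b2 had the opposite pattern, at background in C57Bl/6J and detected on every Balb/C array. These raw signals come from separate files and are set side by side only. Embryonic and theta globin genes (Hba-x, Hbb-y, Hbb-bh1, Hbq1a and Hbq1b, 7 probes) had 0 probes kept in either strain.

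**Figure D3:**
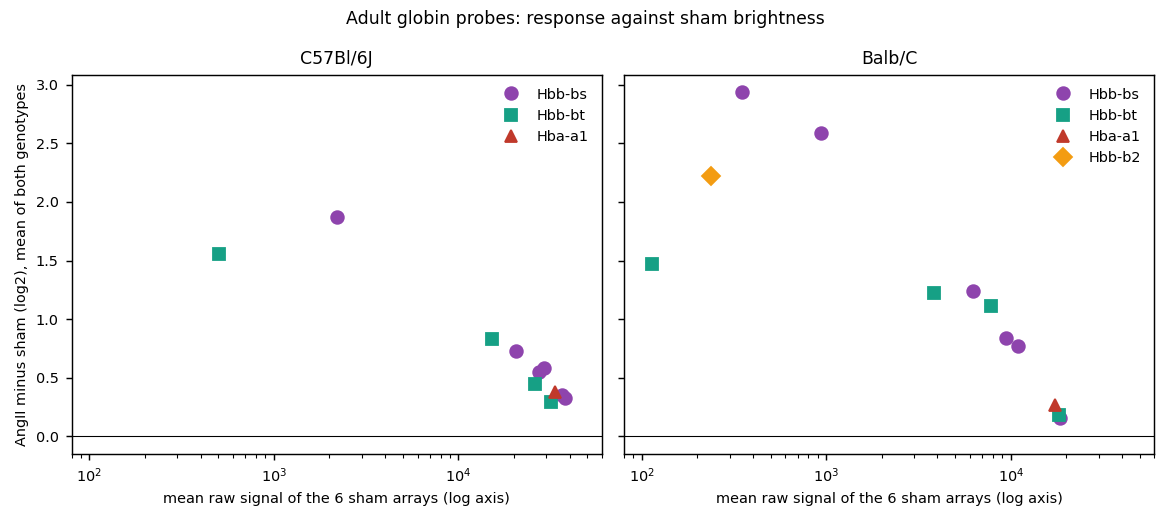
AngII minus sham difference averaged over both genotypes (vertical axis, log2) against mean raw signal of the 6 sham arrays (horizontal log axis) for the adult globin probes of each strain. Each point is 1 probe; responses reach 1.87 in C57Bl/6J and 2.94 in Balb/C among dim probes and fall to 0.29 and 0.16 among the brightest.

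Some members varied widely between arrays of the same group. The residual SD of Slc4a1, the spread left after group means, was 0.58 in C57Bl/6J and 0.70 in Balb/C, above 99.6% and 99.9% of all kept probes, whose median was 0.20. For Alas2 it was 0.64 (99.7%) and 0.30 (88.2%), for Hbb-b2 0.52 in Balb/C (99.5%), and for Hba-a1 0.22 (58%) and 0.20 (48.4%). Bpgm, at 0.22 and 0.13, did not stand apart. Among the 20 brightest probes of an array, globin probes held 4 to 6 places on the AngII arrays of C57Bl/6J, 0 to 4 on its sham arrays, 1 to 6 on the AngII arrays of Balb/C and 0 to 3 on its sham arrays. Wild-type sham replicate 2 of C57Bl/6J had 3 such places, and deficient sham replicate 3 had 4, the 2 sham arrays of that strain with any. These were also the sham arrays with the highest Slc4a1, Alas2 and Hba-a1 of their groups. In Balb/C, wild-type sham replicate 3 and deficient sham replicate 1 had 3 places each. The wild-type array was the highest of its group in all 3 genes. The deficient array was the highest in Hba-a1, while Slc4a1 and Alas2 were highest on deficient sham replicate 3, which had 0 places.

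Members were then compared array by array after subtracting group means, in 16 pairs of genes over both strains, with exact permutation within groups (1296 arrangements, two-sided, smallest p 0.000772). In Balb/C, Slc4a1 and Alas2 deviated together (Pearson r = 0.82, exact permutation p = 0.00309, adjusted 0.037; Spearman rho = 0.79, p = 0.0123, adjusted 0.0988; 12 arrays), and r was 0.77 without the 2 arrays farthest from the median of Slc4a1. Bpgm deviated against both, with r = -0.85 with Slc4a1 and r = -0.85 with Alas2 (adjusted exact permutation p = 0.037 each; rho = -0.82 and -0.90, adjusted 0.128 and 0.0988), and r was -0.81 and -0.75 without the 2 arrays. With median scaling these 2 fell to -0.48 and -0.35, neither past the threshold. The Bpgm probe is dim in Balb/C, as given above, and its deviations there were small, with a residual SD of 0.13 (percentile 11.6). Alas2 and Hbb-b2 had r = 0.80 (exact permutation p = 0.0301, adjusted 0.12) and rho = 0.73 (p = 0.0401, adjusted 0.16). The alpha-globin gene Hba-a1 had r = -0.25 with Slc4a1 (exact permutation p = 0.531, adjusted 0.708; rho = -0.19) and r = 0.02 with Alas2 (exact permutation p = 0.951; rho = 0.09). The brightest beta-globin probe of Balb/C, Hbb-bs ILMN_1244316, had r = -0.63 with Slc4a1 and -0.44 with Alas2, as a description. In C57Bl/6J the largest were Slc4a1 with Alas2 at r = 0.64 (exact permutation p = 0.0656, adjusted 0.17; rho = 0.64, p = 0.0741) and with Hba-a1 at r = 0.60 (p = 0.0756, adjusted 0.17; rho = 0.66, p = 0.0617), neither past the threshold. The number of pairs passing by r was 3, as it was without background correction, against 1 with median scaling and 0 on the deposited series values. By rank it was 0, against 3 without background correction, 3 with median scaling and 0 on the deposited values. Without background correction these were the same 3 pairs as by r. With median scaling they were Slc4a1 with Alas2, Slc4a1 with Hbb-b2 and Alas2 with Hbb-b2, all above 0, and no Bpgm pair passed.

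**Figure D4:**
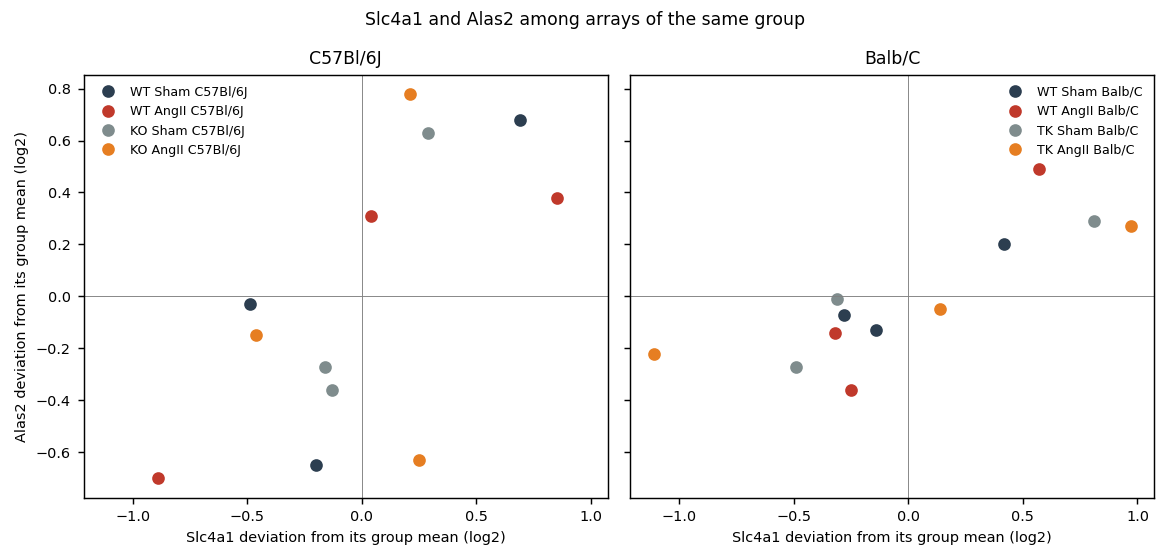
Deviation of Alas2 (vertical axis) against that of Slc4a1 (horizontal axis), each from its own group mean in log2 units, 1 point per array and 12 arrays per strain. Points rise together in Balb/C (r = 0.82) and more loosely in C57Bl/6J (r = 0.64).

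Few of the genes whose deviations were most like those of a member were red cell genes. Over the 12 C57Bl/6J arrays and 10815 other genes, Slc4a1 was closest to Hps4 (r = 0.94), Osbpl3 (0.93), Utp23 (0.92), Lekr1 (0.91) and Prpf38b (0.91). The brightest globin probe of C57Bl/6J, Hbb-bs ILMN_2545963, was closest to Hba-a1 (r = 0.93), then Mapk12 (0.92), Tlcd4 (0.92), Adig (0.91) and Hic1 (0.91). In Balb/C, over 10668 other genes, Slc4a1 was closest to Ms4a7 (0.93), Ncf4 (0.90), Bcl2a1d (0.90), Hmces (0.89) and Oas2 (0.89), of which Ms4a7 and Ncf4 are known from macrophages and neutrophils. The Balb/C globin probe, Hbb-bs ILMN_1244316, was closest to Ercc2 (0.94), Zfp711 (0.94), Pcdhgc3 (0.93), Jmjd4 (0.91) and Hagh (0.89). With 12 arrays and that many genes such values are a ranking only.

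Other red cell genes were read by their brightest kept probe. Of 20 membrane and skeleton genes 9 were kept in each strain, and 0 were called higher in any AngII comparison. Gypc, a glycophorin that other tissues also make, fell by 0.64 (SE 0.14, adjusted p = 0.0188) in wild-type C57Bl/6J, by 0.81 (SE 0.14, adjusted p = 0.000283) in wild-type and by 0.49 (SE 0.14, adjusted p = 0.0267) in deficient Balb/C hearts. Sptb, the beta-spectrin that muscle also uses, fell by 0.52 in wild-type hearts of each strain (adjusted p = 0.0114 in C57Bl/6J and 0.00794 in Balb/C). Among all genes read this way, 3.24%, 1.89%, 17.4% and 7.44% were called higher and 3.65%, 1.41%, 18.6% and 5.67% lower in wild-type C57Bl/6J, deficient C57Bl/6J, wild-type Balb/C and deficient Balb/C. More red-cell-restricted genes of the list, Epb42, Rhag, Rhd and Kel, were not detected often enough to be kept in either strain.

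The heme synthesis list was counted against the same shares of all genes. In C57Bl/6J 13 of its 15 genes were kept, and 0 were called in either genotype; averaged over genotypes Slc25a37, the mitochondrial iron importer mitoferrin, rose by 0.55 (SE 0.15, adjusted p = 0.0234) and Alad, the enzyme after Alas2, fell by 0.30 (SE 0.08, adjusted p = 0.0228). In Balb/C 12 were kept. Slc25a37 rose by 0.68 (SE 0.17, adjusted p = 0.0129) in deficient hearts, and Ppox, a late enzyme of the pathway, fell by 0.72 and 0.52 in wild-type and deficient hearts (adjusted p = 0.00327 and 0.0483). Alad fell by 0.38 in wild-type Balb/C hearts (adjusted p = 0.0397). The list's median difference lay between -0.25 and 0.13 over the 4 comparisons.

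Of 13 erythroid transcription factor and receptor genes on the array, 9 were kept in C57Bl/6J and 8 in Balb/C. Gata1 and Gfi1b were kept in neither strain, Klf1 in Balb/C alone at a mean log2 level of 4.72 with differences of 0.06 and 0.12, and Nfe2 in C57Bl/6J alone. Of 9 kept genes in C57Bl/6J 0 were called in either genotype. Averaged over genotypes Trim10, an erythroid ubiquitin ligase, rose by 0.80 (SE 0.17, adjusted p = 0.00837), Nfe2 by 0.70 (SE 0.18, adjusted p = 0.0184) and Tfrc, the transferrin receptor that imports iron, by 0.64 (SE 0.20, adjusted p = 0.0454), while Ldb1 fell by 0.38 (SE 0.09, adjusted p = 0.0138). In Balb/C 1 of 8 kept genes was called in either genotype, Tal1, which fell by 0.49 (SE 0.17, adjusted p = 0.0384) in wild-type hearts. Ldb1 fell there by 0.35 (SE 0.10, adjusted p = 0.0103) over both genotypes. Background rates for the averaged comparison in C57Bl/6J were 7.53% higher and 7.99% lower.

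Other red cell enzymes and reticulocyte genes were counted in the same way. In C57Bl/6J 0 of 14 were called per genotype, and averaged over genotypes Car2, carbonic anhydrase 2, rose by 0.66 (SE 0.19, adjusted p = 0.0356) and Gpx1, glutathione peroxidase, by 0.42 (SE 0.09, adjusted p = 0.00748), while Fbxo7 fell by 0.47 (SE 0.12, adjusted p = 0.0159). Of 15 kept in Balb/C, Gpx1 rose by 0.89 (SE 0.15, adjusted p = 0.000259) in wild-type hearts and Isg20 by 0.67 (SE 0.21, adjusted p = 0.0431) in deficient hearts. Rbm38 fell by 0.46 (SE 0.17, adjusted p = 0.0413) in wild-type hearts. Catalase, Cat, fell by 0.42 and 0.51 (adjusted p = 0.0481 and 0.0419). Car1 and Pklr, the red cell forms of carbonic anhydrase and pyruvate kinase, were not kept. In wild-type Balb/C 1 of 15 was called higher and 2 lower, against 17.4% and 18.6% of all genes. In deficient Balb/C 1 was higher and 1 lower, against 7.44% and 5.67%. In C57Bl/6J the shares were 3.24% and 1.89% higher and 3.65% and 1.41% lower in wild-type and deficient hearts. Averaged over genotypes there, they were 7.53% higher and 7.99% lower. The counts per genotype are near these shares.

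**Figure D5:**
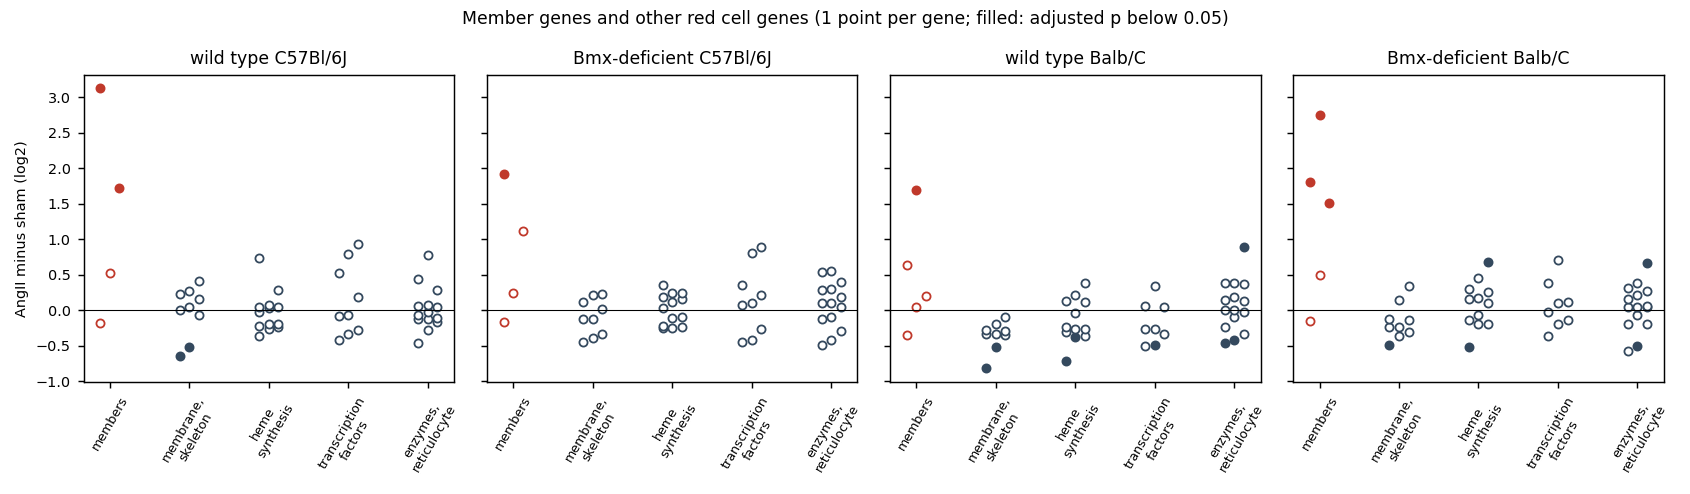
AngII minus sham difference (vertical axis, log2 normalized signal) of each member probe (red) and of each kept gene of 4 red cell lists (dark), in 4 panels by genotype and strain. Filled points have an adjusted p below 0.05; members reach 3.12 while the called membrane genes lie at -0.81 to -0.49.

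Markers of the other blood and tissue cells were read the same way, and their part in the members' values was not tested. Of 14 platelet genes 9 were kept. Pf4, a platelet chemokine also made by some macrophages, rose by 0.93 (SE 0.21, adjusted p = 0.0352) in deficient C57Bl/6J hearts and by 1.71 and 1.53 in wild-type and deficient Balb/C hearts (adjusted p = 5.89e-05 and 0.000531), whereas Tubb1, a platelet tubulin, fell by 1.02 (SE 0.24, adjusted p = 0.00307) in wild-type Balb/C hearts. The summed level of the kept platelet genes, in linear normalized signal, ran from 550 to 938 and from 665 to 2707 on the wild-type and deficient AngII arrays of C57Bl/6J, against 530 to 698 and 446 to 655 on the sham arrays. Neutrophil genes had 5 of 12 kept in C57Bl/6J and 3 in Balb/C, with 0 called per genotype, and their granule genes Ngp, Camp, Ltf, Mpo and Elane were not kept in either strain. S100a8, an abundant neutrophil calcium-binding protein, rose by 1.51 (SE 0.45, adjusted p = 0.0404) over both genotypes of C57Bl/6J. The summed neutrophil level there ran from 199 to 730 and from 265 to 583 on the wild-type and deficient AngII arrays, and from 162 to 286 and from 157 to 182 on the sham arrays. Lymphocyte genes had 4 of 14 kept in C57Bl/6J and 2 in Balb/C, with 0 called and Cd8a and Cd4 not kept.

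Macrophage genes were counted in the same comparisons. In wild-type Balb/C hearts, where 1 of 5 members was called, 7 of 8 kept monocyte and macrophage genes were called higher and 1 lower, with a median difference of 1.23, against the 17.4% and 18.6% of genes given above. The lower one was Ccr2, a chemokine receptor of monocytes, at -1.18 (SE 0.22, adjusted p = 0.000536). In deficient Balb/C hearts, where 3 members were called, 4 were higher and 1 lower, again Ccr2, with a median of 0.42, against 7.44% and 5.67%. Adgre1, a surface protein of macrophages, rose by 2.51 (SE 0.25, adjusted p = 1.91e-06) in wild-type and by 1.70 (SE 0.25, adjusted p = 0.000268) in deficient hearts. In C57Bl/6J 2 and 3 of 10 were higher and 1 (Ccr2) and 0 lower, against 3.24% and 1.89% higher and 3.65% and 1.41% lower, led by the lysozyme gene Lyz2 at 0.86 and 0.95 (adjusted p = 0.0116 and 0.0153). Summed levels ran from 2486 to 3263 on the wild-type and from 1694 to 2525 on the deficient AngII arrays of Balb/C, against 1173 to 1793 and 1623 to 2914 on the sham arrays. Capillary endothelial genes fell in Balb/C, with 6 of 9 kept genes lower in each genotype, among them the glycerol channel gene Aqp7 by 1.55 and 1.11 (adjusted p = 2.26e-05 and 0.00134) and the receptor gene Tie1 by 1.04 and 0.61 (adjusted p = 0.000269 and 0.03), and 0 of 8 were called in C57Bl/6J per genotype.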

How the data were processed

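Total left-ventricle RNA of 24 samples was measured on Illumina arrays. The deposited values were linear probe intensity values, not normalized per the file headers, with a detection p-value per probe, in 1 file per strain; the authors' deposited series values were log2 values normalized within each strain. Per the labels' protocols RNA was purified with TRIsure and NucleoSpin columns and labelled with biotin. Scanner software and settings are not given in the sources used here. In the Balb/C file 313 detection p-values without a decimal point were taken as 1.

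In R 4.3.3 with limma 3.58.1 (data.table version 1.17.8), signals were corrected by the normal-exponential model with detection p-values (neqc), offset 16, quantile-normalized within strain and log2-transformed. Probes detected at p below 0.05 on at least 3 of 12 arrays were kept (20319 in C57Bl/6J, 19783 in Balb/C of 45281). A fit of 4 group means per strain (8 residual degrees of freedom) gave the contrasts, with Benjamini-Hochberg adjustment over all kept probes, called below 0.05; a fit of 24 arrays compared strains. Of the probes 34885 had 1 gene symbol, 18 several and 10378 none; 34807 matched a GRCm38.p6 gene. The number of arrays limits the precision. The fits were tested on simulated data.

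All member probes and Bmx are named. From each gene list up to 4 called genes with the smallest p in a strain's AngII contrasts could be named, otherwise the 2 brightest, and the 5 genes most like Slc4a1 and the brightest globin probe. From some lists fewer are named than this allows, so the named genes are a further selection. List genes that were not kept, and other genes or probes singled out, were named after their values were seen. Members, lists and rules were chosen with earlier results of these data known. Alternatives covered background, offset, scaling, filter, priors, arrays left out and the replicate block. Replicate numbers did not pair arrays: in no pair of groups did every same-numbered pair of arrays correlate above 0.1.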

Additional observations from a re-analysis of the deposited data

Results flagged for a closer look

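In Balb/C the AngII response of Alas2 was larger in Bmx-deficient than in wild-type hearts, with a tested difference of 1.31 (SE 0.29, adjusted p = 0.0352), and over the other settings its adjusted p ran from 0.00222 to 0.202. In wild-type hearts the AngII response of Slc4a1 differed between strains, Balb/C minus C57Bl/6J, by -2.49 (SE 0.63, adjusted p = 0.0114, from 0.00267 to 0.0808 over the other settings, where the difference ran from -2.72 to -1.09). The same strain difference for Alas2 was -1.52 (SE 0.49, adjusted p = 0.0436, from 0.0153 to 0.177). With single arrays left out its adjusted p rose up to 0.129. In both strain differences the strain cannot be told apart from its separate set of arrays. No member's group of 3 arrays can be tested for a single outlying array.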

How the results depend on the processing

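Of 1488 values of single member probes under other settings, 1367 kept their direction and their side of the threshold, 57 lost a call, 30 gained one and 34 changed sign. Both Hbb-b2 rises in Balb/C kept their call under every setting run. Where a call or sign moved, the cause was not tested. In wild-type C57Bl/6J hearts 2 members were called under AngII, 1 without the filter on dim probes, and 3, with Hba-a1 gained, without background correction (adjusted p = 0.0336), with an offset of 50 (0.0346), with a trended prior (0.0141) and on the deposited values (0.0303). In deficient Balb/C hearts Hba-a1 was gained under 6 of 11 settings. In wild-type Balb/C hearts the count of 1 became 3 with median scaling and 2 with no filter, with a stricter filter and with 1 probe per gene, where Bpgm was the member gained, and the mean of both genotypes went from 3 to 5 with array weights. The Alas2 difference between genotypes in Balb/C, the 1 call of that contrast, was lost (0 called) without background correction, with an offset of 50, with median scaling, without the filter and on the deposited series values. Of 2 members whose wild-type responses differed between strains, 0 stayed without background correction and 1 with median scaling or on the deposited values. In deficient hearts 1 member probe was called without the filter. It was not 1 of the 4 members tested in the main contrast but a probe that the filter had left out. Of the 3 member pairs that passed by r, 1 with r above 0 and 2 below it, 1 passed with median scaling and 0 on the deposited values.

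The replicate number as a block left 1 member called in wild-type C57Bl/6J hearts and 1 in the wild-type strain contrast. The numbers did not pair the arrays, so this is a value only.

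Small differences that changed sign were, for AngII hearts by genotype, Alas2 in C57Bl/6J (-0.03 with array weights), Slc4a1 in Balb/C (0.02 with array weights) and Bpgm in Balb/C (-0.01 with median scaling). Bpgm also changed sign in the C57Bl/6J genotype contrast of responses (0.00 without background correction and on the deposited values), in the wild-type strain contrast (0.05 with median scaling) and in the deficient one (-0.08 with array weights), where Slc4a1 did as well (0.26). With each array left out in turn, members called ran from 1 to 3 in wild-type and 0 to 1 in deficient C57Bl/6J hearts under AngII, from 0 to 2 by genotype in AngII hearts of Balb/C, from 0 to 2 in its contrast of responses and from 1 to 2 in the wild-type strain contrast. Signs then changed for Hba-a1 (-0.07 to 0.05), Slc4a1 (-0.64 to 0.24) and Alas2 (-0.35 to 0.36) by genotype in AngII hearts of C57Bl/6J, for Bpgm in its contrast of responses (-0.12 to 0.14), for Hba-a1 (-0.04 to 0.16) and Alas2 (-0.05 to 0.38) in wild-type Balb/C hearts under AngII, for Slc4a1 by genotype in AngII hearts of Balb/C (-0.62 to 0.42), and for Slc4a1 (-0.58 to 0.46) and Bpgm (-0.11 to 0.16) in the deficient strain contrast.

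Counts over all probes also moved. AngII calls in C57Bl/6J were 1301 in wild-type (769 to 1950 over other settings) and 690 in deficient hearts (313 to 1397), and in Balb/C 6779 (3965 to 7234) and 2647 (1372 to 3996). Genotype calls in AngII hearts were 22 (9 to 61) and 1640 (896 to 2978), the contrast of responses 8 (6 to 21) and 246 (86 to 951), and the strain contrasts 2320 (1469 to 3691) and 223 (53 to 927). With single arrays left out, genotype calls in AngII hearts of Balb/C ran from 575 to 2334 and its contrast of responses from 97 to 557. The wild-type strain contrast then ran from 1615 to 2458. Signal over background limits Slc4a1 in sham hearts, Bpgm, and Hbb-b2 in C57Bl/6J. Recounting the beta-globin probes was chosen after seeing the data.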

Other observations

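Genes that bind or store heme and iron gave values of their own. In C57Bl/6J 13 of 15 such genes were kept, and in wild-type hearts Lcn2, an iron-siderophore binding protein, rose by 1.54 (SE 0.22, adjusted p = 0.00224) and Hp, the haemoglobin-binding haptoglobin, by 1.12 (SE 0.24, adjusted p = 0.0174), against 3.24% of genes called higher. In Balb/C, with 14 kept, Ftl1, the light chain of ferritin, rose by 2.18 (SE 0.19, adjusted p = 5.07e-07) in wild-type and by 1.74 (SE 0.19, adjusted p = 2.5e-05) in deficient hearts, and Trf, transferrin, by 0.70 (SE 0.21, adjusted p = 0.0175) in wild-type hearts. Of these 14 genes 3 were called higher in wild-type and 2 in deficient hearts, against 17.4% and 7.44% of genes. The wild-type count is near its background. Averaged over genotypes in C57Bl/6J, 4 genes rose, Lcn2 by 1.20, Hp by 0.60, Trf by 0.53 and Ftl1 by 0.49 (adjusted p = 0.000547, 0.0337, 0.00831 and 0.0089), and Slc40a1, the iron exporter ferroportin, fell by 0.48 (SE 0.14, adjusted p = 0.035). Background rates for that comparison were 7.53% higher and 7.99% lower.

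Hypoxia genes, like genes in general, were called more often in Balb/C. Of 13 kept genes 7 were higher and 1 lower in wild-type and 3 higher in deficient hearts. Of all genes 17.4% and 7.44% were called higher and 18.6% and 5.67% lower. Egln3 rose by 1.37 (SE 0.22, adjusted p = 0.00017) and by 1.01 (SE 0.22, adjusted p = 0.00551), and Vegfa by 0.67 and 0.91 (adjusted p = 0.00699 and 0.0023). In C57Bl/6J 1 of 12 was called in wild-type hearts, P4ha1, which rose by 0.99 (SE 0.19, adjusted p = 0.00909), and 0 in deficient hearts. There 3.24% and 1.89% of all genes were called higher.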
